A study of Mus musculus with 6 samples.

Results

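The 10 genes Msrb1, Prdx5, Prdx6, Txn1, Txnrd1, Gpx1, Gclm, Gsr, Cat and Sod2 encode enzymes and carriers that remove peroxides and superoxide and keep protein thiols reduced. They were followed in splenic CD11b+Gr-1high cells by taking every microarray probe annotated to them. Of the 10 genes, 7 had a named probe, with 11 probes among the 45281 on the array, which names 19057 genes in all. Prdx5, Prdx6 and Gsr were not analysed here. The members were selected on their measured differences from WT cells, with results of the same arrays in view, so their differences from control cells are given as a description.

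The cells came from the spleens of female BALB/c mice of 6 to 8 weeks and were sorted as CD11b+Gr-1high, a gate that holds granulocytic cells, which in tumor-bearing hosts are called myeloid-derived suppressor cells (MDSC). In the 4T1-TB group, 50000 cells of the 4T1 mouse mammary carcinoma line had been implanted in the abdominal mammary gland and had grown to tumors of more than 1000 mm3. In the G-CSF group, mice without tumor had received 10 µg per day of recombinant granulocyte colony-stimulating factor under the skin for 5 days, and the WT group was the control without tumor. Each group had 2 arrays, described as biologic replicates, so that each fold change rests on 4 arrays. Values are log2 intensities after quantile normalization, and a probe was taken as detected on an array where its detection p, from the array's negative control probes, was under 0.05.

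Peroxides are removed along 2 main routes in mammalian cells. In one, thioredoxin (Txn1) passes electrons from NADPH, through thioredoxin reductase (Txnrd1), to peroxiredoxins and to methionine sulfoxide reductases such as Msrb1, which repair oxidized methionine. In the other, glutathione, whose first step of synthesis is carried out by a ligase with the modifier subunit Gclm, serves glutathione peroxidases such as Gpx1 and is recycled by Gsr. Catalase (Cat) breaks down hydrogen peroxide without a thiol, and Sod2 converts superoxide to hydrogen peroxide in mitochondria. Neutrophils make superoxide with their NADPH oxidase when they meet microbes, and the transcription factor NRF2 is known to turn on Gclm, Txnrd1 and Prdx1 under oxidative stress, at an antioxidant response element in their regulatory DNA.

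The promoter of Gclm is shown because Gclm had the largest increase among the members, with the core of the antioxidant response element in capitals. The sequence is from RefSeq (GRCm38.p6, chr3:122245307-122245606, plus strand) and covers 250 bases before and 50 after the annotated start.
Gclm: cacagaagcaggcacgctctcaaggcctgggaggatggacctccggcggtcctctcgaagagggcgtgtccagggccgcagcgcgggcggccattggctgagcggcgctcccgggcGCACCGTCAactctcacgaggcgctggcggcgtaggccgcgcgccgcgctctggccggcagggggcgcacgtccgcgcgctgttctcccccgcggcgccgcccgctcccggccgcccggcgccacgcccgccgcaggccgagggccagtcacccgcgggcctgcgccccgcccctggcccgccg
The element searched was TGACNNNGC on both strands, and in Gclm it lay on the opposite strand, at positions -134 to -126 from the start. Other matches to this pattern lay at -92 to -84 in 1 window of Txnrd1 (chr10:82858956-82859255), though not in its other windows. Prdx1, which is not a member, had a match at -133 to -125 (chr4:116685349-116685648). Both were again on the opposite strand. The matches are set side by side below with 12 bases on either side and the match in capitals.
Gclm: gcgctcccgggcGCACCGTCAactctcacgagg
Txnrd1: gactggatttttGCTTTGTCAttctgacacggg
Prdx1: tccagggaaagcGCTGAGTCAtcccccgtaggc
Of the 10 members, 8 matched a RefSeq promoter, and the pattern was absent from the windows of Msrb1, Txn1, Gpx1, Cat, Sod2 and Prdx5. Among 59 other redox genes, followed below, 14 of 70 windows (20%) held it, those of Prdx1 among them. It was absent from the windows of Nqo1, Blvrb, Fth1, Ftl1 and Osgin1, listed below as further NRF2 targets. Of all 32851 promoter windows of this length, 12.4% held the element, so that a match describes the sequence and is no evidence of binding.

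The arrays detected 7421 to 10036 probes each, and the 2 arrays of a group did not resemble each other to the same degree in each group. Of 11527 probes detected on at least 2 arrays, 114 (0.989%) differed by more than 1 log2 unit between the 4T1-TB arrays, 871 (7.56%) between the G-CSF arrays and 0 between the WT arrays. Of 13 neutrophil marker probes, 10 and 10 were detected on the 4T1-TB arrays, 10 and 11 in G-CSF and 11 and 11 in WT. The neutrophil genes S100a8, S100a9, Ltf, Lcn2, Retnlg and Camp were detected on every array, whereas Itgam, which encodes the sorting antigen CD11b, was detected only on the WT arrays and Mmp8 on none. Ngp, a granule gene of immature neutrophils, had log2 intensities of 7.67 and 7.81 in 4T1-TB and 7.28 and 9.99 in G-CSF, against 12.21 and 11.91 in WT, and was called lower in 4T1-TB (limma adjusted p = 0.0450). Itgam was called lower in 4T1-TB and in G-CSF (limma adjusted p = 0.00770 and 0.00859), and S100a8 in G-CSF (0.0176). The granule gene Ltf went the other way, with ILMN_2754364 called higher in 4T1-TB by 1.17 on the log2 scale (limma adjusted p = 0.0415). Its other probe and Lcn2 were also higher in 4T1-TB, by 2.37 and 0.88, without a call. G-CSF replicate 1 and 4T1-TB replicate 1 stood apart by erythroid transcripts. Alas2, the erythroid enzyme of heme synthesis, was 11.15 and 6.88 on the 4T1-TB arrays and 11.12 and 6.93 on the G-CSF arrays, against 6.88 and 6.87 on the WT arrays, in the order of replicate 1 and 2. Over the 5 erythroid probes, 3 and 1 were detected on the 4T1-TB arrays and 4 and 1 on the G-CSF arrays, against 1 and 2 on the WT arrays, and their summed linear level was 25335 and 628, 11561 and 1035, and 1750 and 1529 in the same order. The summed level of 10 monocyte probes was 1406 and 1321 on the 4T1-TB arrays and 1327 and 1518 on the G-CSF arrays, against 2436 and 2353 on the WT arrays, with most of the fall in the probes of Treml4. The sum over 16 macrophage probes was 8763 and 8943 in 4T1-TB and 10426 and 10527 in G-CSF, against 8620 and 9363 in WT, and 3 of the 16, of C1qb, C1qc and Vcam1, were called lower in each comparison with WT. Most of the sum was that of Slc40a1 (ILMN_2747923), at 12.59 to 13.05 on the log2 scale. The mean log2 intensity over the 16 probes was 7.315 and 7.269 in 4T1-TB and 7.379 and 7.438 in G-CSF, against 7.568 and 7.527 in WT. The T cell sum (5 probes) was higher on every array of treated mice, at 1898 and 2691 in 4T1-TB and 2283 and 1832 in G-CSF, against 1120 and 1308 in WT, with 0 probes called. Most of it came from Cd3d, at 10.35 and 11.12 in 4T1-TB and 10.59 and 10.40 in G-CSF, against 9.35 and 9.68 in WT. Detected T cell probes numbered 4 and 1 in 4T1-TB and 4 and 1 in G-CSF, against 1 and 1 in WT. The eosinophil sum (4 probes) was 1586 on 4T1-TB replicate 1 and 481 to 530 on the other arrays. The B cell sum (6 probes) was 833 and 718 in 4T1-TB and 933 and 724 in G-CSF, against 748 and 739 in WT. Its Cd79b probe ILMN_2610822 was detected only on replicate 1 of each treated group, at 7.71 in 4T1-TB and 8.31 in G-CSF. Of 7 tumor epithelium probes 1, of Cdh1, was detected on any array. The part of these other cell types in the results below was not tested.

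Gclm, which makes glutathione synthesis more efficient at low glutamate, was near background in WT cells and well above it in both treated groups. Its probe ILMN_1256354 had log2 intensities of 9.80 and 9.32 on the 4T1-TB arrays and 9.77 and 9.86 on the G-CSF arrays, against 6.93 and 6.95 on the WT arrays. All 4 arrays of treated mice lay more than 2 log2 units above both WT arrays, on which the probe was not detected. Before normalization, the intensities were 1397 and 640 in 4T1-TB cells, 1654 and 1134 in G-CSF cells and 118 and 130 in WT cells. The difference from WT was 2.62 on the log2 scale in 4T1-TB cells (95% interval 2.24 to 3.01) and 2.88 in G-CSF cells (2.49 to 3.26). Because the probe was not detected in WT cells, the fold between group means can only be bounded against the lowest detected signals on the WT arrays, which gave at least 5.63-fold in 4T1-TB and at least 6.72-fold in G-CSF cells. Like the bounds given below, these leave out the spread between arrays, which the intervals hold. Leaving out any 1 of the 6 arrays kept both calls, with fold changes of 2.38 to 2.86 and 2.83 to 2.92 on the log2 scale. The part of erythroid transcripts in it was not tested.

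**Figure D1:**
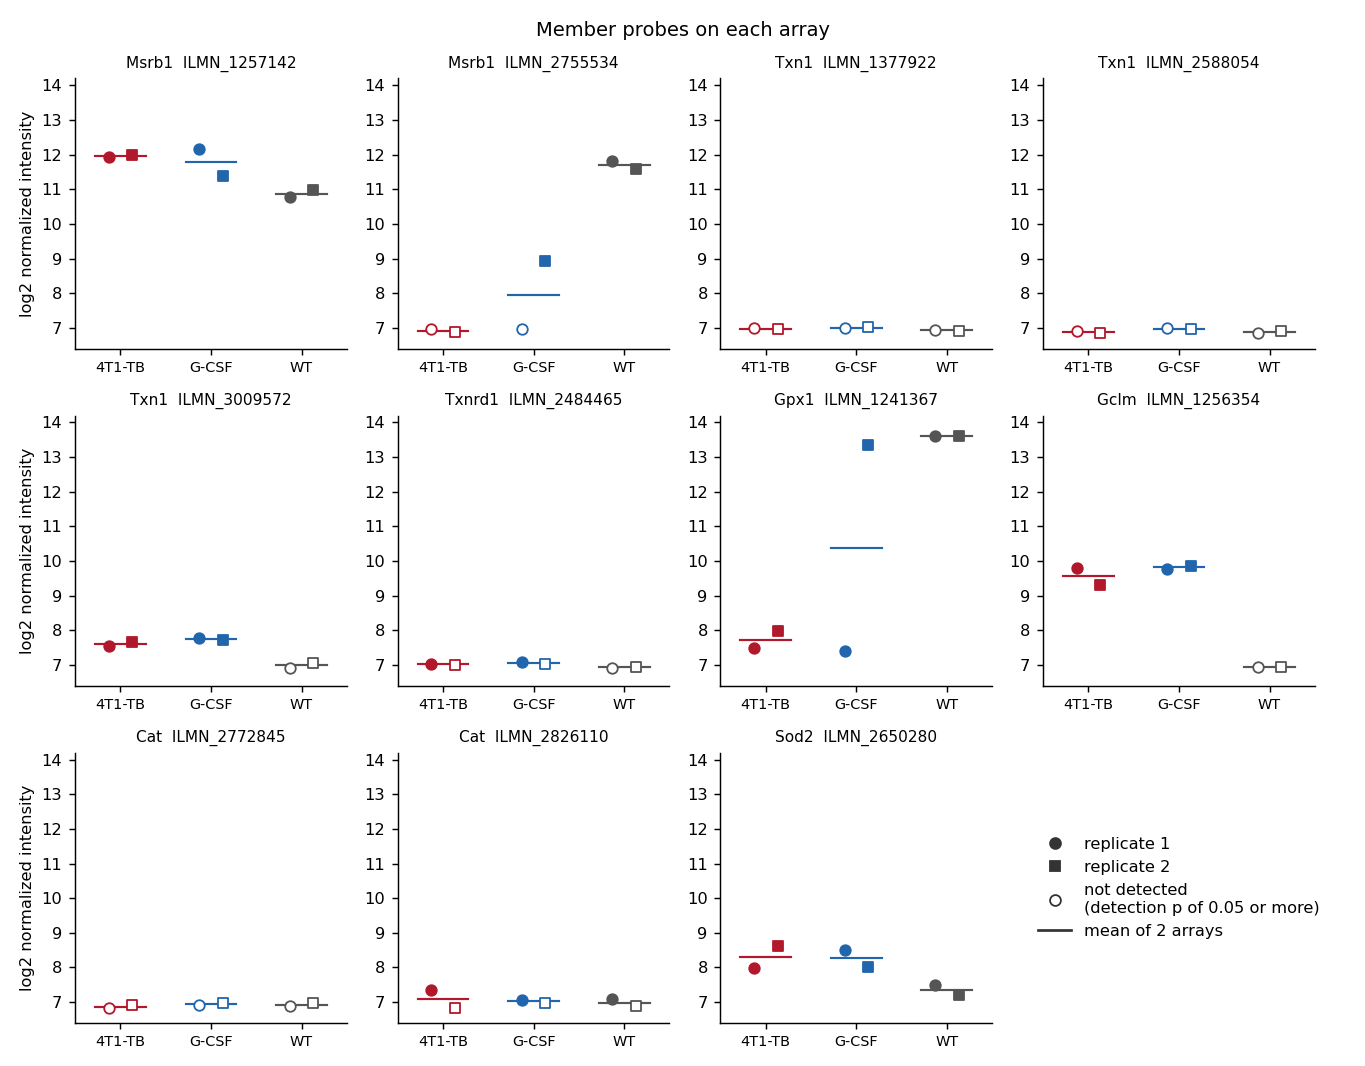
Log2 normalized intensity of the 11 member probes on each array, with 4T1-TB, G-CSF and WT from left to right. Circles are replicate 1 and squares replicate 2, open symbols are arrays where the probe was not detected, and lines are means of 2 arrays. Gclm lies between 9.32 and 9.86 in treated mice and at 6.93 and 6.95 in WT, while Gpx1 is at 13.36 on G-CSF replicate 2 and at 13.60 on both WT arrays.

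Gpx1, the glutathione peroxidase of the cytosol and a selenoprotein, was among the brightest signals in WT cells and close to the detection limit in 4T1-TB cells. Its probe ILMN_1241367 had log2 intensities of 7.48 and 7.97 on the 4T1-TB arrays and 7.39 and 13.36 on the G-CSF arrays, against 13.60 on each WT array. The G-CSF arrays were split, with replicate 1 below both 4T1-TB arrays and replicate 2 just under WT. The WT arrays share 1 value because quantile normalization gives probes of equal rank the same level, and their intensities before normalization were 9822 and 7064. Those of the other arrays were 206 and 233 in 4T1-TB cells and 195 and 12600 in G-CSF cells. The difference from WT was -5.88 in 4T1-TB cells (95% interval -10.34 to -1.41) and -3.23 in G-CSF cells (-7.70 to 1.24), and neither was called. Without G-CSF replicate 1 the difference of G-CSF from WT was -0.25. Gpx1 was thus low on both replicate 1 arrays of treated mice, where Alas2 was high, and also on 4T1-TB replicate 2, where Alas2 was 6.88. The globin gene Hba-a1 was 14.27 and 7.16 on the 4T1-TB arrays and 12.05 and 9.13 on the G-CSF arrays, against 10.31 and 10.01 on the WT arrays. The part of erythroid transcripts in the Gpx1 values was not tested. The Gpx1 probe was detected on all 6 arrays.

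Msrb1, a selenoprotein that reduces the R form of methionine sulfoxide, was measured by a pair of probes that went opposite ways. ILMN_2755534 had log2 intensities of 6.96 and 6.87 on the 4T1-TB arrays and 6.98 and 8.93 on the G-CSF arrays, against 11.82 and 11.57 on the WT arrays. It was not detected on either 4T1-TB array or on G-CSF replicate 1, and all 4 arrays of treated mice lay below both WT arrays. Its mean in 4T1-TB cells was at least 25.1-fold below the mean in WT cells, a bound that leaves out the spread between arrays. The fitted log2 difference was -4.78 (95% interval -6.26 to -3.31) in 4T1-TB cells and -3.74 (-5.22 to -2.27) in G-CSF cells. ILMN_1257142, in contrast, was bright on every array, with 11.92 and 11.97 on the 4T1-TB arrays and 12.16 and 11.39 on the G-CSF arrays, against 10.77 and 10.98 on the WT arrays. Its log2 differences from WT were 1.07 (0.47 to 1.68) in 4T1-TB cells and 0.90 (0.29 to 1.51) in G-CSF cells, and neither was called. The annotation ties both probes to 1 transcript record of Msrb1 and gives no position on it, so the level of the gene as a whole has no settled direction. The call of ILMN_2755534 was lost in both comparisons when either 4T1-TB array or either WT array was left out, with log2 differences that stayed between -4.90 and -4.66 in 4T1-TB and between -4.72 and -2.77 in G-CSF cells.

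In the thioredoxin system, Txn1 was called on 1 of its 3 probes. ILMN_3009572 had log2 intensities of 7.53 and 7.67 on the 4T1-TB arrays and 7.78 and 7.72 on the G-CSF arrays, against 6.92 and 7.06 on the WT arrays. The treated groups did not overlap with WT, where the probe was not detected. Its mean was at least 1.44-fold higher in 4T1-TB and at least 1.60-fold higher in G-CSF cells, with fitted log2 differences of 0.61 (95% interval 0.42 to 0.80) and 0.76 (0.57 to 0.95). The call in 4T1-TB was lost with a trended and robust prior and without either 4T1-TB array or either WT array (log2 difference 0.54 to 0.68), and that in G-CSF without WT replicate 1 (0.69 to 0.83 over the 6 fits). The other probes, ILMN_1377922 and ILMN_2588054, were not detected on any array and ranged from 6.84 to 7.01. Txnrd1, the selenoprotein that recharges thioredoxin, was barely measurable, with ILMN_2484465 at 7.04 and 6.99 on the 4T1-TB arrays and 7.09 and 7.02 on the G-CSF arrays, against 6.91 and 6.94 on the WT arrays. It was detected on replicate 1 of each treated group and on none of the other arrays, and its log2 differences from WT were 0.09 (-0.05 to 0.23) and 0.13 (-0.01 to 0.27).

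Sod2, the mitochondrial superoxide dismutase, was detected on all arrays. ILMN_2650280 had log2 intensities of 7.97 and 8.62 on the 4T1-TB arrays and 8.51 and 8.02 on the G-CSF arrays, against 7.50 and 7.19 on the WT arrays. Both treated groups lay above WT and overlapped with each other, with log2 differences from WT of 0.95 (95% interval 0.29 to 1.61) and 0.92 (0.26 to 1.58), which were not called. Catalase, which breaks down hydrogen peroxide, gave no clear signal. ILMN_2772845 was not detected on any array and lay between 6.83 and 6.98. ILMN_2826110 was detected at 7.33 on 4T1-TB replicate 1, 7.07 on G-CSF replicate 1 and 7.09 on WT replicate 1 and not on the replicate 2 arrays, so that its highest value was on the array with the highest Alas2, and the part of erythroid transcripts in it was not tested. Its log2 differences from WT were 0.10 (-0.33 to 0.53) in 4T1-TB and 0.04 (-0.39 to 0.47) in G-CSF cells.

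**Figure D2:**
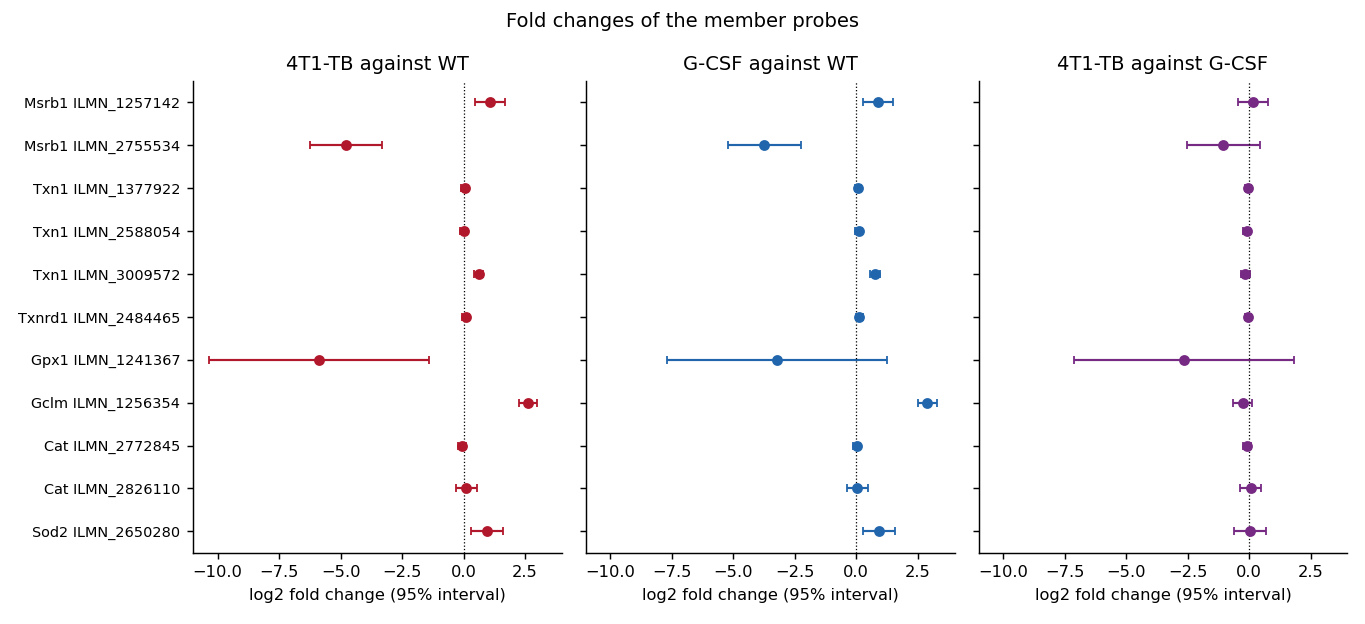
Log2 fold changes of the 11 member probes in 4T1-TB against WT, G-CSF against WT and 4T1-TB against G-CSF cells, with 95% intervals from the limma fit over 6 arrays. Against WT, Gclm stands at 2.62 and 2.88 and the Msrb1 probe ILMN_2755534 at -4.78 and -3.74, while the interval of Gpx1 runs from -10.34 to -1.41 in 4T1-TB. Both comparisons with WT use the same WT arrays.

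In counts, limma at an adjusted p under 0.05 called 2 of the 11 member probes higher in 4T1-TB than in WT cells (Gclm and ILMN_3009572 of Txn1) and 1 lower (ILMN_2755534 of Msrb1), beside 2.93% of all probes called higher and 2.56% called lower. The counts in G-CSF against WT were also 2 and 1, for the same probes, beside 2.22% and 2.31% of all probes. Both comparisons share the WT arrays. Calls were more common among bright probes, as 25.6% of the 2988 probes with a mean log2 intensity of at least 8 passed upward and 10.6% downward in 4T1-TB, and 21.1% and 9.77% in G-CSF. Of the 4 member probes in that range, 1 was called higher and 1 lower in each comparison. The median log2 difference over the 11 probes was 0.09 in 4T1-TB and 0.10 in G-CSF cells, against 0.00 over all probes in each. Called probes of the whole array were higher in 53.3% of cases in 4T1-TB and 49.0% in G-CSF, and, when arrays were centred on their medians and not quantile normalized, in 74.3% and 85.7%, where none of the 11 member probes was called and the whole array gave 35 and 112 calls, against 2486 and 2053 with quantile normalization. The log2 differences of Gclm were then 2.96 and 3.48, and those of ILMN_2755534 were -3.94 and -2.77. With background correction by neqc, ILMN_2755534 was not called either, at -7.29 and -5.10.

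Other probes on the array were also bright in WT and near background in 4T1-TB cells, as Gpx1 and ILMN_2755534 of Msrb1 were. Of 350 probes with a log2 intensity of at least 11 on both WT arrays, 30 (8.57%) were under 8 on both 4T1-TB arrays, among them these 2 of the members. All 30 were also under 8 on G-CSF replicate 1, and 11 of them on G-CSF replicate 2. These limits were chosen after the values were seen. Of 6 probes of other redox genes that were as bright in WT cells, 0 were under 8 on both 4T1-TB arrays, the nearest being Gpx4, which reduces lipid peroxides and is, like Gpx1 and Msrb1, a selenoprotein. Its probe ILMN_2684855 had log2 intensities of 7.71 and 8.73 on the 4T1-TB arrays and 7.10 and 12.27 on the G-CSF arrays, against 11.54 and 11.67 on the WT arrays. As with Gpx1, G-CSF replicate 1 was the lowest array and G-CSF replicate 2 was near WT, and Gpx4 was not called.

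**Figure D3:**
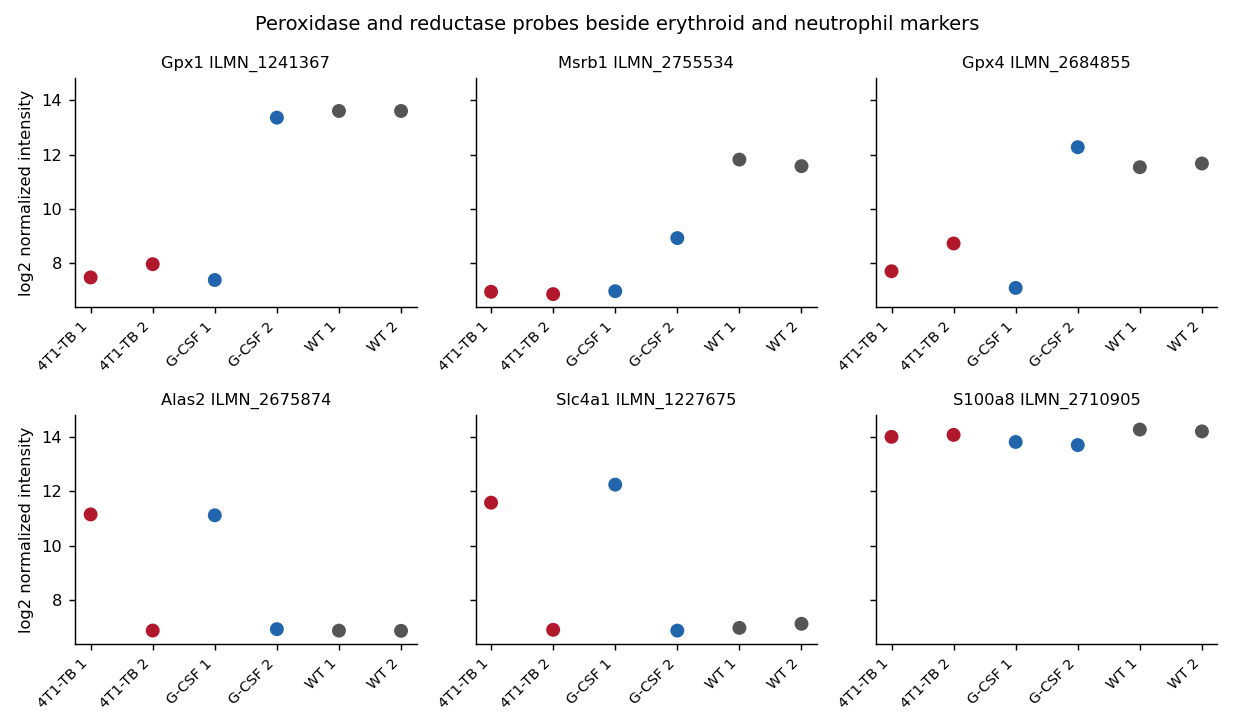
Log2 normalized intensity on each array of Gpx1, the Msrb1 probe ILMN_2755534 and Gpx4 (upper row) and of the erythroid genes Alas2 and Slc4a1 and the neutrophil gene S100a8 (lower row), with 4T1-TB, G-CSF and WT arrays from left to right. Gpx1 and Gpx4 are at 13.36 and 12.27 on G-CSF replicate 2 and at 7.39 and 7.10 on G-CSF replicate 1, while Alas2 is above 11 on replicate 1 of both treated groups and at most 6.93 on the other arrays.

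Between 4T1-TB and G-CSF cells, 0 of the 11 member probes were called by limma and 0 had an unadjusted p under 0.05, beside 0% of all 45281 probes called and 1416 (3.13%) with an unadjusted p under 0.05. The limits on these differences were narrow for some members and wide for others. The log2 difference of 4T1-TB from G-CSF cells was -0.26 for Gclm (95% interval -0.64 to 0.13), -0.15 for ILMN_3009572 of Txn1 (-0.34 to 0.04), 0.17 for ILMN_1257142 of Msrb1 (-0.43 to 0.78) and 0.03 for Sod2 (-0.63 to 0.69). It was -2.65 for Gpx1 (-7.11 to 1.82), where the G-CSF arrays disagreed. For ILMN_2755534 it was -1.04 (-2.51 to 0.43), which was not called. This probe was not detected on the 4T1-TB arrays or on G-CSF replicate 1, so that the difference rested on G-CSF replicate 2. Without G-CSF replicate 1, when the group is a single array assumed to vary like the others, Gpx1 and ILMN_2755534 were called lower in 4T1-TB, with a log2 difference of -5.63 for Gpx1, beside 1310 probes called on the whole array.

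Of 59 other genes of these routes, 57 had probes, 115 in all, of which 54 were detected on at least 2 arrays and 43 on none. In 4T1-TB against WT cells 4 of the 115 probes were called higher (3.48%) and 5 lower (4.35%), and in G-CSF against WT cells 4 (3.48%) and 4 (3.48%), which is near the shares over all probes. The median log2 difference was -0.01 in 4T1-TB and 0.00 in G-CSF cells. Of 17 bright probes among them, 1 passed upward and 1 downward in 4T1-TB cells, and 1 passed upward and 0 downward in G-CSF cells.

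The higher calls came from several of these routes. Chac1, which degrades glutathione, had log2 intensities of 7.70 and 7.82 on the 4T1-TB arrays and 7.77 and 7.60 on the G-CSF arrays, against 7.02 and 6.90 on the WT arrays, where it was not detected, and was at least 1.61-fold higher in 4T1-TB and 1.53-fold in G-CSF cells (limma adjusted p = 0.00792 and 0.0116). Txndc12, a thioredoxin-domain protein of the endoplasmic reticulum, was likewise at least 1.29-fold higher in 4T1-TB and 1.36-fold in G-CSF cells (adjusted p = 0.0392 and 0.0301). In 4T1-TB cells, ILMN_2909211 of Msrb2, a mitochondrial methionine sulfoxide reductase, was at least 1.90-fold higher (adjusted p = 0.0350), and ILMN_2764883 of Mafg, a partner of NRF2 on DNA, rose by 0.73 (adjusted p = 0.0309). In G-CSF cells, Blvrb, which reduces biliverdin, rose by 1.36 (adjusted p = 0.0235) and Glrx, which removes glutathione from proteins, by 0.77 (adjusted p = 0.0254). Their log2 differences in the other group were 0.78 for Msrb2 and 0.58 for Mafg in G-CSF cells, and 1.03 for Blvrb and 0.37 for Glrx in 4T1-TB cells, none of which passed. None of the second probes of these genes was called. That of Mafg (ILMN_2493338) lay below WT, with 8.66 and 8.96 on the 4T1-TB arrays and 8.86 and 8.14 in G-CSF, against 9.21 and 9.16 in WT. That of Msrb2 (ILMN_2699556) lay below WT in 4T1-TB, with 7.06 and 7.08 on the 4T1-TB arrays and 6.95 and 7.92 in G-CSF, against 7.60 and 7.71 in WT. Neither Mafg nor Msrb2 has a settled direction as a gene. Log2 intensities were 12.12 and 12.27 on the 4T1-TB arrays and 12.04 and 11.89 on the G-CSF arrays, against 12.08 and 11.98 on the WT arrays for the second probe of Glrx. The second probe of Blvrb had 7.24 and 7.20 in 4T1-TB and 7.49 and 7.25 in G-CSF, against 6.99 and 6.95 in WT.

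The lower calls also came from several routes. Slc7a11, the cystine importer that feeds glutathione synthesis, had log2 intensities of 7.53 and 7.45 on the 4T1-TB arrays and 7.33 and 7.55 on the G-CSF arrays, against 8.34 and 8.78 on the WT arrays (ILMN_2948143, adjusted p = 0.0194 and 0.0183), and its 4 further probes were not called. Prdx2, a peroxiredoxin, fell on ILMN_2773554 by 0.97 in 4T1-TB and 1.07 in G-CSF cells (adjusted p = 0.0271 and 0.0221). Its other probes, ILMN_1242829 and ILMN_2638354, were not called and lay between 6.75 and 7.05. Idh1, a source of cytosolic NADPH, fell by 1.29 in 4T1-TB and 1.12 in G-CSF cells (adjusted p = 0.00715 and 0.0117). Gstp1, a glutathione transferase, was not detected in either treated group on ILMN_2677046, so that this probe was lower by a factor of at least 1.82 in 4T1-TB and 1.84 in G-CSF cells (adjusted p = 0.00202 and 0.00207). The other Gstp1 probes were not called. ILMN_1223230 was detected only on G-CSF replicate 2 (7.17) and ILMN_2793329 only on 4T1-TB replicate 1 (7.06). Sqstm1, which binds the NRF2 inhibitor KEAP1, was 7.07 and 7.08 on the 4T1-TB arrays and 7.03 and 8.26 on the G-CSF arrays, against 9.46 and 9.37 on the WT arrays, and its log2 difference of -2.34 passed in 4T1-TB (adjusted p = 0.0252) while -1.77 in G-CSF did not. These lower calls stood beside the lower sums of monocyte probes in treated mice given above, and of 10 monocyte probes 2, both of Treml4, were called lower in each comparison. The means of Csf1r and Cx3cr1 were lower without a call. Ccr2 (ILMN_1222795) lay above WT without a call, with 7.29 and 7.01 in 4T1-TB and 7.10 and 7.04 in G-CSF, against 6.78 and 6.91 in WT. The macrophage genes C1qb, C1qc and Vcam1 also had a probe called lower in each comparison, of 16 macrophage probes. The other macrophage probes, further ones of Vcam1 among them, were not called. Slc40a1 (ILMN_2747923) lay above WT in G-CSF without a call, with 13.05 on both arrays against 12.59 and 12.78. The part of monocytes and macrophages in the lower redox calls was not tested.

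**Figure D4:**
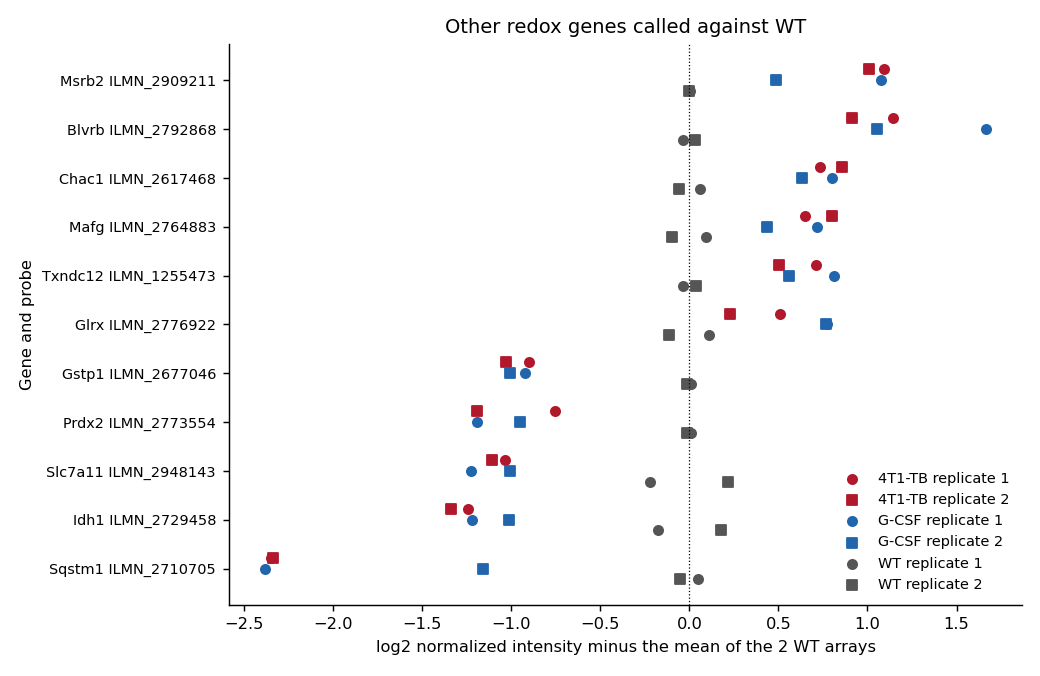
The 11 probes of other redox genes called in at least 1 comparison with WT, drawn as log2 intensity on each array minus the mean of the 2 WT arrays. Red is 4T1-TB, blue G-CSF and grey WT, circles are replicate 1 and squares replicate 2. Sqstm1 lies lowest in 4T1-TB, at a difference of -2.34, and Msrb2 highest, at 1.05.

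Most of these calls were lost when a single array was left out. Each such fit has fewer arrays and another shared estimate of the spread. A call can therefore be lost while the difference stays the same, as in G-CSF against WT without a 4T1-TB array. In 4T1-TB against WT, Gstp1 was called with any 1 array left out (adjusted p up to 0.0323), Idh1 was lost without either 4T1-TB array (up to 0.0687), Chac1 and Prdx2 without 4T1-TB replicate 2 or either WT array (up to 0.0763 and 0.182), and Slc7a11 without either 4T1-TB array or WT replicate 2 (up to 0.147). Txndc12, Msrb2, Mafg and Sqstm1 were lost without any 1 of those 4 arrays (up to 0.230, 0.231, 0.207 and 0.175). In G-CSF against WT, Gstp1 was again called in all 6 fits (up to 0.0327), Idh1 was lost without WT replicate 2 (0.0546), Prdx2, Chac1 and Glrx without either WT array (up to 0.167, 0.101 and 0.168), Slc7a11 without either 4T1-TB array or WT replicate 2 (up to 0.0637), and Txndc12 and Blvrb without any 4T1-TB or WT array (up to 0.200 and 0.170). The sign of each difference stayed the same under all 14 alternatives, but the size did not. Centring arrays on their medians, without quantile normalization, made each called decrease smaller and each called increase larger, and none was then called. Slc7a11 was then -0.29 in 4T1-TB and -0.30 in G-CSF, and Prdx2 -0.28 and -0.42. Mafg was 1.44 in 4T1-TB and Blvrb 2.69 in G-CSF.

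By route, the lists of probes were short, so a count of 0 or 1 does not set a route apart from the array. On the whole array, upward calls made up 2.93% of probes and downward calls 2.56% for 4T1-TB against WT. For G-CSF against WT these shares were 2.22% and 2.31%. Among the thioredoxin-system probes 1 of 12 was called in each comparison, and the largest difference there, -1.92 in 4T1-TB for Txnip, which inhibits thioredoxin, did not pass. Among peroxiredoxins and sulfiredoxin 1 of 11 probes was called in each, among glutathione peroxidases and transferases 1 of 20, and among superoxide dismutases 0 of 4. Of the 10 probes of further NRF2 targets, which include Hmox1, Nqo1 and the ferritin genes, 0 were called in 4T1-TB and 1, of Blvrb, in G-CSF. Mgst2, a microsomal glutathione transferase, had the largest positive difference of the 115 probes in 4T1-TB, with 10.40 and 9.99 on the 4T1-TB arrays and 10.20 and 8.49 on the G-CSF arrays, against 7.53 and 7.61 on the WT arrays, and was not called.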

How the data were processed

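RNA of splenic CD11b+Gr-1high cells from 4T1-TB, G-CSF and WT mice was hybridized to Illumina MouseWG-6 v2 arrays, 2 per group. The authors deposited a table of probe intensity values with detection p-values, and a log2 table. GenomeStudio was used per the submitters' processing notes, which name no version. Per the authors' methods, the deposited log2 values were quantile normalized with lumi. Log2 and quantile normalization of the deposited intensities gave the log2 table within 4.99e-09, and a column without a number was taken as replicate 1, since its partner is numbered 2. Probes were named from GEO's platform annotation, in which 34885 of 45281 had 1 gene symbol, 18 several and 10378 none.

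The deposited log2 values were fitted with limma 3.58.1 (R 4.3.3), with all 6 arrays sharing 1 estimate of the spread, without a filter or a block, and p-values were adjusted over all 45281 probes (Benjamini-Hochberg). A probe was called at an adjusted p under 0.05. Intervals are 95%. Where a probe was undetected (detection p of 0.05 or more) on both arrays of a group, the fold is a bound against the higher of the lowest detected signal and the probe's own value on each array. Such a bound compares group means and leaves out the spread between arrays. The script was tested on simulated data. The number of arrays limits the precision.

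The members and the lists of other genes were chosen with earlier results of these data known. All member probes are named, and of the other genes up to 6 increases and 6 decreases called in each comparison with WT, 1 probe per gene. Alternatives were other scalings, neqc (offset 16), a filter on detection, a trended and robust prior, a fit of the 4 arrays of a comparison alone, a block for the replicate number, a 2-fold criterion with unadjusted p under 0.01, and each array left out in turn. Promoter windows are RefSeq's (GRCm38.p6). Probe and protein sequences were not used here.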

Additional observations from a re-analysis of the deposited data

How the results depend on the processing

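Each direction of the called member probes and called probes of other redox genes stayed the same under all 14 alternatives, and recomputing the log2 values from the intensities changed no count. Centring on the median, without quantile normalization, left 0 members and 0 other redox probes called in either direction against WT, while calls on the whole array numbered 35 in 4T1-TB and 112 in G-CSF, against 2486 and 2053 as reported. It moved the median log2 difference of detected probes to 0.17 in 4T1-TB and 0.21 in G-CSF, against 0.07 in each as reported, and neqc moved it to 0.20 in each. With neqc, 0 members were called lower in either comparison and 3 other probes were lower in 4T1-TB, while Gclm had log2 differences of 4.98 and 5.28 and ILMN_3009572 of Txn1 1.82 and 2.15. Calls on the whole array with neqc numbered 1977 in 4T1-TB and 1759 in G-CSF. With only the 4 arrays compared, 4 members were higher and 2 lower in 4T1-TB cells, 0 were lower in G-CSF cells, and the other probes gave 12 higher and 14 lower calls in 4T1-TB and 2 higher ones in G-CSF, beside 5126 and 1376 calls on the whole array. Among probes detected on at least 2 arrays, 8 other probes were lower in 4T1-TB, beside 2979 calls in all. The 2-fold criterion called 1 member and 1 other probe higher in G-CSF, beside 1302 probes of the whole array in either direction. The trended prior called 7 other probes higher in G-CSF, beside 2271 calls on the whole array. Without both replicate 1 arrays of treated mice, an alternative chosen after seeing the data, 4 members were higher and 2 lower in 4T1-TB, 4 were higher in G-CSF and 3 were lower in 4T1-TB than in G-CSF. The other probes then gave 8 higher and 12 lower calls in 4T1-TB cells, 11 and 9 in G-CSF cells, and 3 and 8 between 4T1-TB and G-CSF cells, beside 4695, 3497 and 1554 calls on the whole array. With 1 array left out, members called higher numbered 1 to 4 in each comparison with WT, members called lower 0 to 2 in each, and members lower in 4T1-TB than in G-CSF 0 to 2. Higher and lower calls of the other probes numbered 0 to 12 and 1 to 14 in 4T1-TB cells, 0 to 12 and 1 to 15 in G-CSF cells, and 0 to 2 and 0 to 7 between 4T1-TB and G-CSF cells.

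With the replicate block, 2 members were higher and 1 lower in each comparison with WT, as without it, and the other probes gave 5 higher and 5 lower calls in 4T1-TB cells and 5 and 6 in G-CSF cells. Calls on the whole array numbered 2267 in 4T1-TB and 1868 in G-CSF. The call of Prdx2 in 4T1-TB was then lost. The difference of replicate 1 from replicate 2 was taken within each group and correlated between groups over 11527 probes. The correlation was 0.24 for 4T1-TB with G-CSF, -0.02 for 4T1-TB with WT and 0.02 for G-CSF with WT. The labels do not say what a number shares. For probes near background, such as those of Cat and Txnrd1, a difference was not detectable at this signal.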
